A study of Crinum x powellii with 21 samples.

Results

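In callus of Crinum x powellii 'Album', 20 genes differed between growth in light and growth in darkness in the balance of their transcript isoforms. They were selected on measured values, the isoform shares of the callus libraries. An isoform share is the estimated read count of one assembled isoform divided by the summed estimated count of all isoforms of its gene. A gene was taken when its summed count was at least 10 CPM (counts scaled to the library total) in all 11 callus libraries, when an isoform's share in all 6 light libraries was at least 0.2 above, or at least 0.2 below, its share in all 5 dark libraries, and when the mean leaf and mean bulb shares of that isoform differed by less than 0.3. Of 676992 genes with 984129 isoforms, 11057 reached the CPM minimum, 9959 of these had 2 or more isoforms, and 23 had a gap of at least 0.2. The leaf and bulb limit removed 3 of the 23, whose leaf and bulb shares differed by 0.482, 0.599 and 0.689. The limit of 300 genes was not reached, so all 20 are described. The gap is the distance between the nearest light and dark libraries. The isoform with the largest gap is called the leading isoform, and the genes are numbered from member 1, with the largest gap, to member 20.

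Crinum x powellii 'Album' is a garden hybrid of the Amaryllidaceae, a bulb plant family known for its alkaloids. Callus is a mass of unorganised, dividing cells, and here it was grown from twin-scale pieces of bulb on medium with 2 or 4 mg/L of 2,4-D. That compound is a synthetic auxin, a class of plant hormone used to induce callus. The callus medium also contained the cytokinins BAP and kinetin, sucrose and yeast extract in every group. PolyA RNA was sequenced from 3 callus libraries in light (14 h of light and 10 h of darkness a day) at 2 mg/L, 3 in light at 4 mg/L, 2 in continuous darkness (24 h) at 2 mg/L and 3 in darkness at 4 mg/L. Leaves and bulb, untreated, gave 3 libraries each, and root and basal plate, the stem disc at the foot of the bulb, gave 2 each. The labels name no plant or plate for a library, so every p-value here measures only the spread between these libraries, which may be technical. RNA was extracted with a column kit from callus and with a CTAB method from organs, so extraction method and the callus-organ difference cannot be told apart. The titles of the 2 mg/L libraries carry a 3, and the concentration was taken from the treatment label. Summed estimated counts ranged from 26403881 to 67502918 per library. The features carry assembler identifiers without gene names, so no marker gene could be checked for the labelled tissues.

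Plant genes often give more than one mature transcript, through alternative splicing, alternative start sites or alternative ends of the transcript. Isoforms of one gene can differ in the protein they encode, in their stability or in how well they are translated. In Arabidopsis, light is known to shift the splicing of many genes, among them genes of the splicing machinery itself. In a hybrid, the isoforms that an assembler puts under one gene can also be alleles or close copies of the gene. These could not be told apart here, and reads shared between similar isoforms are divided by estimation. No function is given to any of the 20 genes, since their identifiers carry no annotation.

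In 15 of the 20 members the leading isoform held a higher share in light, and in 5 it held a lower one. These directions and gaps are what the rule chose and are given without a test. The gap ranged from 0.201 to 0.475, with a median of 0.256. The mean light and mean dark shares differed by 0.272 to 0.622, with a median of 0.4603. Under the leaf and bulb limit, the smallest gap inside the rule, 0.201, lay close to the largest outside it, 0.198. Under the same limit, 130 of the 9959 genes had a gap of at least 0.1 and 2590 had any positive gap. Estimated counts behind a callus share ran from 410 to 108592 per gene and library, with a median of 2332.5. The 95% Wilson intervals of these shares were 0.00203 to 0.0857 wide. They cover counting error only, not the division of shared reads or the spread between libraries. The rule chose gaps of at least 0.2, so nothing is read from gaps wider than these intervals.

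**Figure D1:**
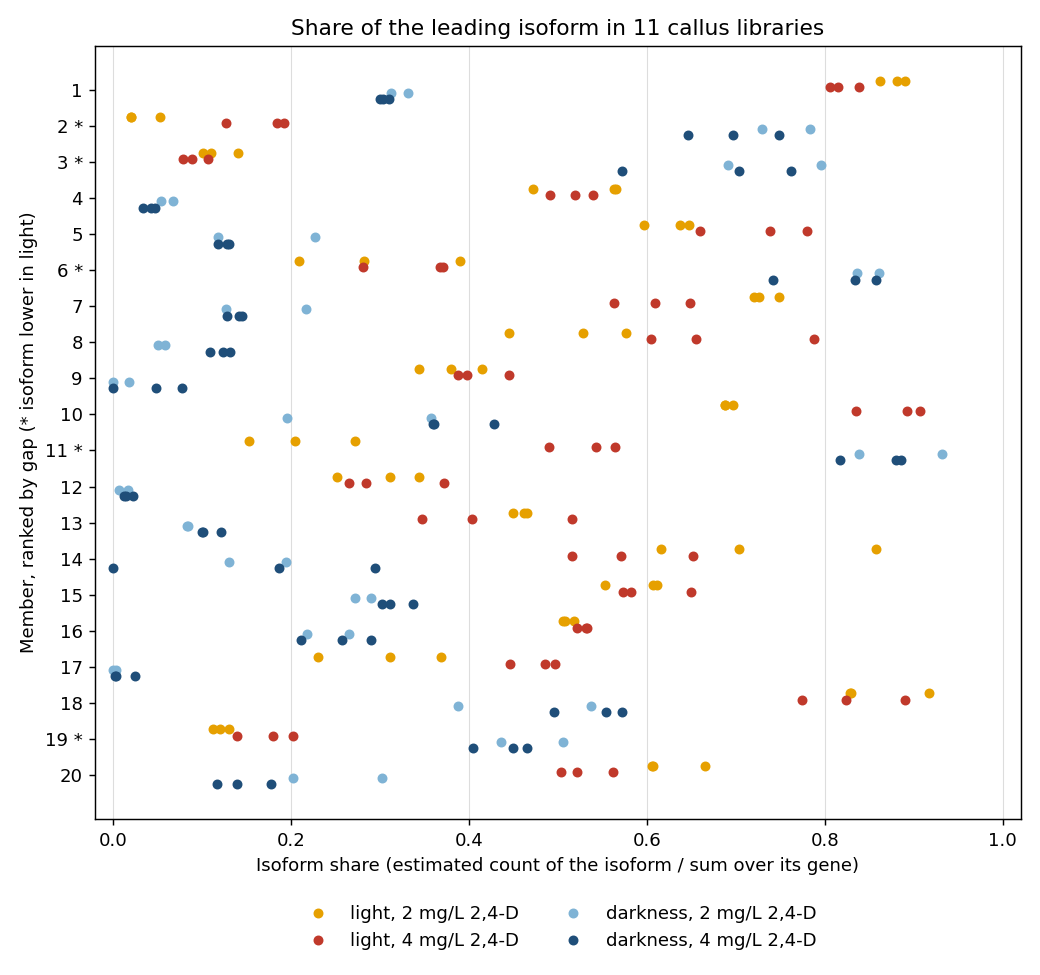
Each point is the share of the leading isoform (horizontal axis, 0 to 1) in 1 of 11 callus libraries, with the 20 members on the vertical axis in order of gap and colours for light or darkness and the concentration of 2,4-D. An asterisk marks the 5 members whose leading isoform was lower in light, and in every member at least 0.2 separates the light points from the dark points because the rule required it.

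The gene with the largest gap was Crpow_TRINITY_DN212_c0_g1, which had 5 isoforms in the table. Its isoform i23 held shares of 0.862, 0.882 and 0.890 in light at 2 mg/L and of 0.806, 0.838 and 0.815 at 4 mg/L. In darkness the shares were 0.312 and 0.332 at 2 mg/L and 0.310, 0.304 and 0.3002 at 4 mg/L. The 5 dark libraries thus lay within a narrow band, and no light library came near it. For each member, the counterpart is the isoform whose share differed most in the opposite direction. The counterpart of member 1, i11, held 0.0731, 0.0338 and 0.0336 in light at 2 mg/L and was listed at 0 in all 3 libraries at 4 mg/L. In darkness it held 0.238 to 0.399. The gene's total was 620 to 1726 CPM in light and 21.9 to 54.9 CPM in darkness, so the change of share accompanied a total that was 30.5 times higher by the ratio of means. The leading isoform's own level was 82.7 times higher. The counterpart's was 1.96 times higher by the ratio of means, with overlapping libraries. That ratio came from the light libraries at 2 mg/L alone. At 4 mg/L in light i11 was listed at 0, below every dark library. By mean share, i23 was the largest isoform of this gene in both conditions. In darkness, however, i11 reached 0.399, above the highest dark share of i23, 0.332.

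Member 4, Crpow_TRINITY_DN606_c0_g1, was the second gene named for a leading isoform that was higher in light. Its total hardly moved, at 23.5 to 30.9 CPM in light and 26.6 to 32.8 CPM in darkness, with overlapping libraries. Isoform i16 held 0.472, 0.565 and 0.563 in light at 2 mg/L and 0.491, 0.519 and 0.539 at 4 mg/L. In darkness it held 0.0668 and 0.0532 at 2 mg/L and 0.0469, 0.0422 and 0.0337 at 4 mg/L. Its counterpart i3 showed the reverse pattern. Isoform i3 was listed at 0 in the 3 light libraries at 2 mg/L and held 0.00571, 0.0145 and 0.00244 at 4 mg/L. In darkness it held 0.426 and 0.436 at 2 mg/L and 0.409, 0.385 and 0.259 at 4 mg/L. The 2 isoforms replaced each other at a nearly constant total, and i3 was listed at 0 in all 10 organ libraries.

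Among the isoforms lower in light, i6 of Crpow_TRINITY_DN12189_c1_g1 (member 2) had the largest gap. It held 0.0199, 0.0531 and 0.0196 in light at 2 mg/L and 0.192, 0.184 and 0.127 at 4 mg/L. In darkness it held 0.730 and 0.783 at 2 mg/L and 0.749, 0.697 and 0.646 at 4 mg/L. The counterpart i5 was at 0.290 to 0.419 in light and at most 0.0251 in darkness. In CPM, the levels of i6 overlapped between light and darkness, at 0.605 to 11.6 and 7.56 to 31.6, while i5 stood at 12.7 to 27.8 in light and at most 0.312 in darkness. At 2 mg/L alone i6 was lower in light, at 0.605 to 2.47 CPM beside 8.02 and 31.6 CPM in darkness, and the overlap came from the 4 mg/L libraries, at 10.5 to 11.6 CPM in light and 7.56 to 9.33 CPM in darkness.

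Isoform i5 of Crpow_TRINITY_DN8019_c1_g1 (member 3) followed the same scheme. Its share was 0.140, 0.110 and 0.101 in light at 2 mg/L and 0.107, 0.0785 and 0.0891 at 4 mg/L. In darkness it was 0.796 and 0.691 at 2 mg/L and 0.572, 0.762 and 0.704 at 4 mg/L. The level of i5 overlapped between the conditions, at 10.7 to 27.2 CPM in light and 16.2 to 34.2 CPM in darkness. The gene's total was 106 to 286 CPM in light and 28.2 to 49.5 CPM in darkness, without overlap. The counterpart i31 stood at 40.8 to 101 CPM in light and 2.61 to 6.66 CPM in darkness.

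Across the 20 members, the isoform favoured in light was higher in CPM in all light libraries than in all dark ones in 19, and the isoform favoured in darkness was lower in light without overlap in 8. Among the 25182 isoforms with a mean callus share of at least 0.1 in genes of the CPM minimum, 9.74% were higher and 17.7% lower in light without overlap. These counts rest on the same callus libraries and values as the rule, so they describe the members and nothing is read from them. The level of the leading isoform in CPM was higher in all 6 light libraries than in all 5 dark ones in 15 of the 15 members with a higher share in light. Of the 5 members with a lower share in light, the leading isoform's level was lower without overlap in 2 and overlapped in 3. Leading isoform and counterpart moved in opposite directions, both without overlap, in 7 members. In 2 members both were higher in light without overlap, and in the remaining 11 at least one of them overlapped. The counterpart's share did not overlap in 18 members, beside 12.0% of those 25182 isoforms. The isoform with the largest mean share differed between light and darkness in 17 members by counts. By TPM, a scale that also divides by transcript length, it differed in 15. The rule selected large moves of share between these same libraries, and no share over all genes was taken for comparison. Both counts therefore only describe the members.

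The log2 ratio of mean CPM in light over mean CPM in darkness, with 0.1 added to each mean, ranged from -1.60 to 6.61 for the leading isoforms, with a median of 2.95. For the counterparts it ranged from -5.81 to 6.40 with a median of 0.16. For the gene totals it ranged from -0.16 to 4.93 with a median of 1.16.

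**Figure D2:**
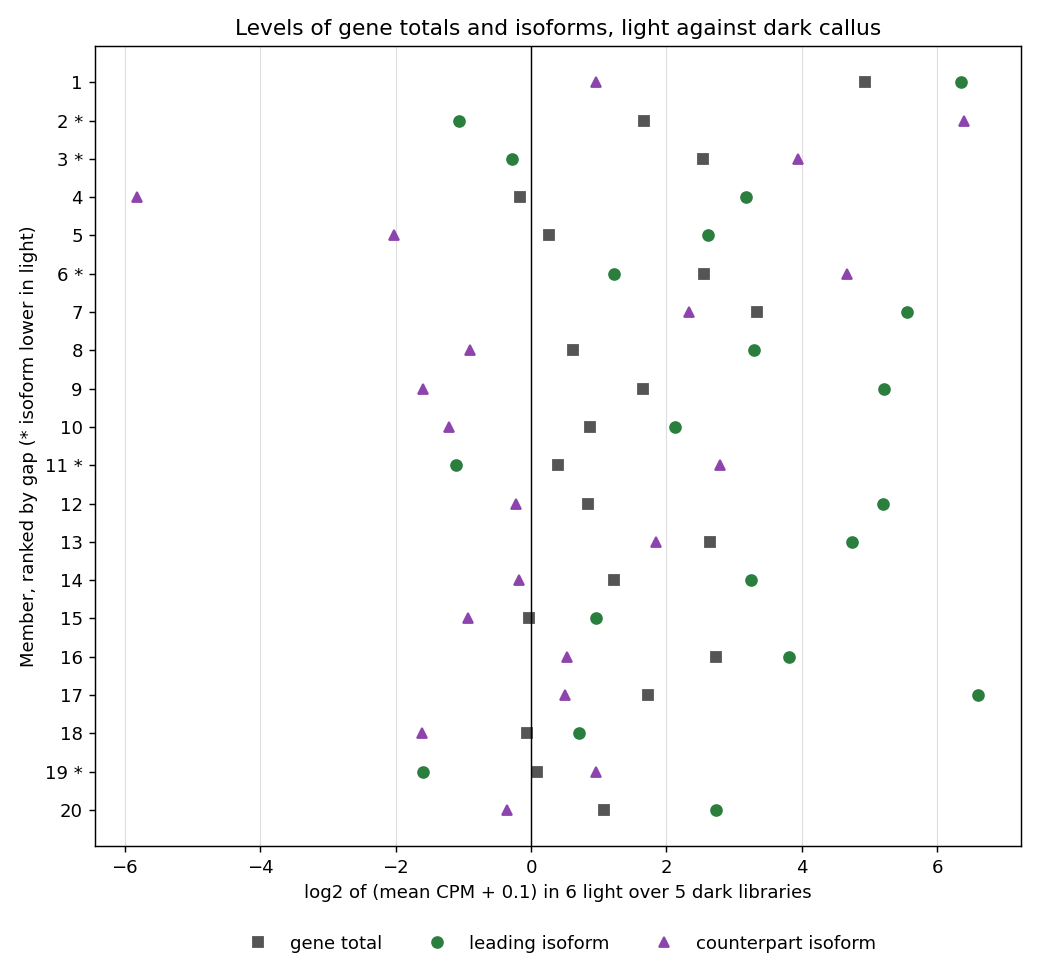
The horizontal axis gives the log2 ratio of mean CPM (plus 0.1) in 6 light over 5 dark callus libraries for the gene total (squares), the leading isoform (circles) and its counterpart (triangles), and the vertical axis gives the 20 members, with an asterisk for a share lower in light. Gene totals lie between -0.16 and 4.93, and in members 4, 15, 18 and 19 the total sits near 0 while the isoforms lie on opposite sides of it.

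The gene totals use the same light and dark libraries as the rule, and each leading isoform is part of its total, so their calls describe the members and support nothing. Totals in CPM, not divided by transcript length, were higher in light without overlap in 12 members, lower in 0 and overlapping in 8. Among the 11057 genes, 11.9% were higher and 24.8% lower without overlap. By edgeR's quasi-likelihood test at a Benjamini-Hochberg adjusted p below 0.05, 16 of 20 totals were called at 2 mg/L, all of them higher in light. Among the 11057 genes that reached the CPM minimum, 39.9% were called, 27.7% higher and 12.2% lower. Over all 121349 genes tested the share was 25.6%. At 4 mg/L, 14 of 20 totals were called, all of them higher. Of the 11057 genes 25.5% were called, 9.33% higher and 16.2% lower, and of all genes tested 12.6%. The fitted log2 difference of the members had a median of 1.54 at 2 mg/L and 1.17 at 4 mg/L, beside -0.06 and 0.06 over all genes tested. Scaling by library totals alone moved the median of all genes at 2 mg/L to -0.38. Under that scaling 14 member totals were called higher and 0 lower at 2 mg/L, beside 2423 higher and 3829 lower among the 11057 genes. At 4 mg/L it was 14 higher and 1 lower, beside 1516 higher and 2875 lower. The largest difference was that of member 1, Crpow_TRINITY_DN212_c0_g1, with a fitted log2 difference of 5.36 ± 0.41 (SE) at 2 mg/L and 5.00 ± 0.33 at 4 mg/L.

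Levels of the members differed widely. Member 12, Crpow_TRINITY_DN7655_c0_g1, had the highest total in darkness, at 654 to 1529 TPM, and stood at 466 to 2637 TPM in light. Member 18 was low throughout callus, at 4.33 to 6.94 TPM in light and 6.91 to 17.7 TPM in darkness. The leading isoform was 0.317 to 4.02 times as long as its counterpart by effective length, with a median of 1.13. In 14 of 20 members the ratio lay between 0.5 and 2. A total in CPM therefore also depends on isoform length. In member 10, with the highest ratio, the light total was 1.83 times the dark one by CPM. Its mean TPM was 262.2 in light and 261.8 in darkness. In member 18, with a ratio of 4.00, the light total was 0.96 times the dark one, with mean TPM of 5.41 and 9.82. Member 8, with the lowest ratio, had 1.55 times, with mean TPM of 20.4 in light and 7.08 in darkness. The members had 4 to 13 isoforms each, with a median of 5.5, beside a median of 5 over the 9959 genes with at least 2 isoforms at this level.

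The gaps were compared with those from the second set of deposited estimates, made with Salmon, and from TPM. A gap of at least 0.2 was kept by 14 members with Salmon counts, by 13 with TPM of the first set and by 13 with Salmon TPM. It was kept under all 4 measures by 13, and 19 members kept a positive gap under all 4. The exception was member 14, whose gap of 0.221 became -0.08 with Salmon counts and -0.06 with Salmon TPM. Its share in darkness also ran from near 0 in replicate B at 4 mg/L to 0.295 in replicate C, the widest dark range of any member. Members 1 to 11 had gaps of at least 0.2 under each measure.

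The rule did not use the concentration of 2,4-D, but it used the same shares and required every light library to stay at least 0.2 from every dark one. That requirement limits how far concentration can move a member within light or within darkness, so the counts below hold for genes selected under that limit. The test asked of each isoform whether it changed differently from the rest of its gene between 2 and 4 mg/L, with edgeR's quasi-likelihood fit over all 11 callus libraries and adjustment over all 133101 isoforms tested. In light, 2 of the 20 leading isoforms were called, both higher at 4 mg/L, which for members 2 and 11 is the direction of the dark libraries. The background was 2.55% of all isoforms tested, and 3.23% of the 24016 isoforms with a mean callus share of at least 0.1 in genes of the CPM minimum. With 2 of 20, the count is too small to set the members apart from that background.

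The largest rise in share was in i12 of Crpow_TRINITY_DN8240_c0_g1 (member 11), one of the isoforms lower in light. Its shares were 0.153, 0.272 and 0.205 at 2 mg/L in light and 0.490, 0.543 and 0.564 at 4 mg/L. In darkness they were 0.932 and 0.838 at 2 mg/L and 0.886, 0.818 and 0.880 at 4 mg/L. The 4 mg/L light libraries thus lay between the 2 mg/L light libraries and the dark ones. The mean share went from 0.210 ± 0.0596 (SD, n = 3 libraries) to 0.532 ± 0.0378 (n = 3), a fitted log2 difference of 1.36 ± 0.35 (SE; edgeR, adjusted p = 0.0254). This call was lost when any 1 of the 6 light libraries was left out, without the filter on low counts, with Salmon counts and with the replicate letter as a block. The counterpart i2 held 0.383 to 0.720 in light and 0.0572 to 0.163 in darkness.

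For i6 of Crpow_TRINITY_DN12189_c1_g1 (member 2), whose 11 callus shares are given above, the mean share in light was 0.0308 ± 0.0192 (SD, n = 3) at 2 mg/L and 0.168 ± 0.0358 (n = 3) at 4 mg/L. The fitted log2 difference was 2.45 ± 0.46 (SE; edgeR, adjusted p = 0.000304). All 3 libraries at 4 mg/L were above all 3 at 2 mg/L, and both sets remained far below the dark libraries. In darkness the mean share of this isoform went the other way, from 0.756 to 0.697, with overlapping libraries. The difference between the concentration effect in light and that in darkness was 2.60 ± 0.64 on the log2 scale (edgeR, adjusted p = 0.0203). Member 2 was the 1 member called for this difference, with 3 at an unadjusted p below 0.05, beside 1.11% of all isoforms tested and 1.32% of the restricted set. The rule chose this isoform for a low share in light and a high share in darkness. On the log2 scale a share of 0.756 can rise little, while one of 0.0308 can rise far. The size of this difference therefore depends in part on the selected starting shares. The call was lost when any 1 of 7 callus libraries was left out, without the filter on low counts and with limma.

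In darkness 0 of 20 leading isoforms were called between 4 and 2 mg/L by edgeR, with 2 at an unadjusted p below 0.05, and limma also called 0. The edgeR background was 0.105% of all isoforms tested and 0.0541% of the restricted set. With limma it was 59 of 131125 isoforms tested and 0 of 24016 in the restricted set. As a description, the shares at the 2 concentrations did not overlap in 11 members in light, 8 higher and 3 lower at 4 mg/L, beside 46.7% of the 25182 isoforms, which is near the members' share. In 6 of those 11 the mean at 4 mg/L was nearer to the dark libraries. In darkness, where one concentration had 2 libraries, they did not overlap in 7 members, 4 higher and 3 lower, beside 22.1% of the 25182 isoforms. The mean shares differed between concentrations by a median of 0.0554 and at most 0.323 in light, and by a median of 0.0335 and at most 0.108 in darkness. A difference over 0.1 occurred in 7 members in light and in 2 in darkness. No such values were taken over the 25182 isoforms, so these only describe the members. Over all isoforms tested, edgeR also called more between concentrations in light, 2.55%, than in darkness, 0.105%.

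**Figure D3:**
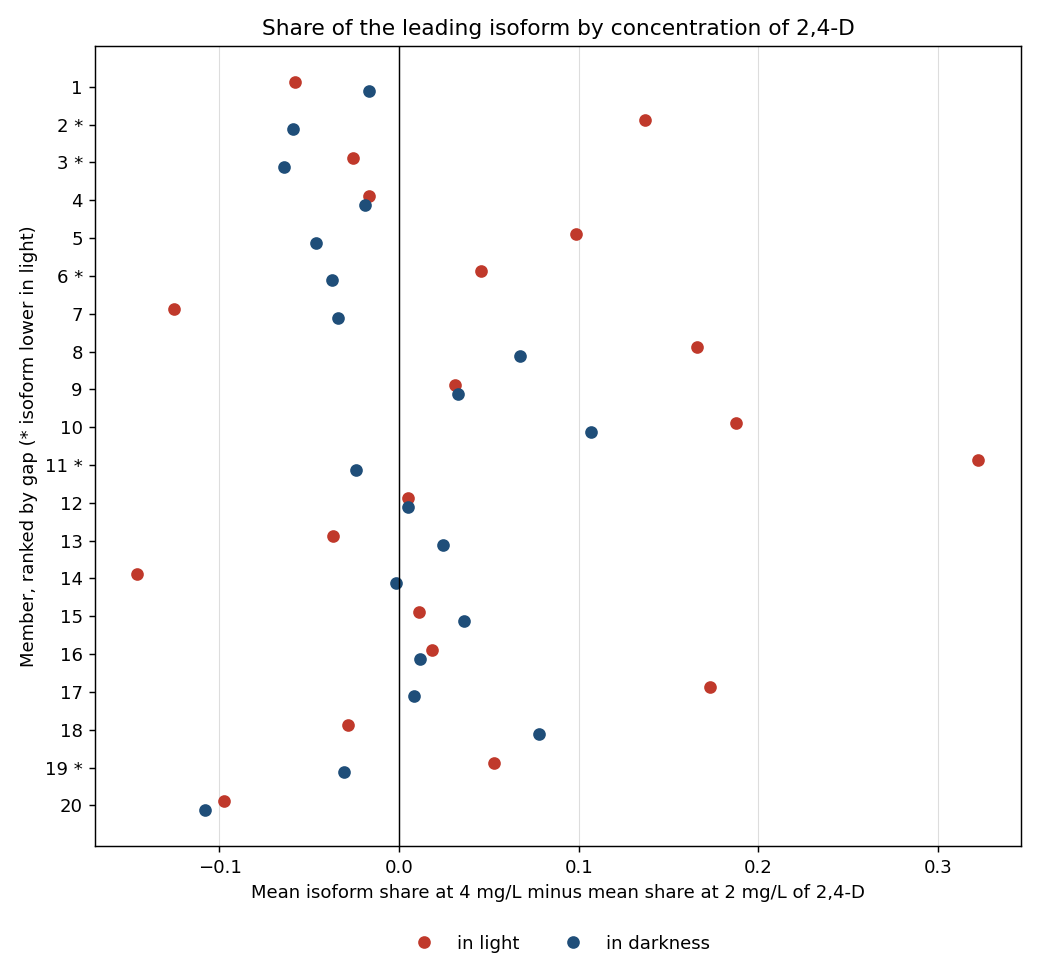
The horizontal axis is the mean share of the leading isoform at 4 mg/L minus that at 2 mg/L of 2,4-D, for callus in light (red, 3 libraries each) and in darkness (blue, 3 and 2 libraries), with the 20 members on the vertical axis. Member 11 lies farthest from 0 in light, at 0.323, and no point in darkness lies farther from 0 than 0.108.

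In light, the gene totals of members 12 and 7 differed between concentrations without overlap of libraries, given as examples. This difference was not tested. The total of member 12 in light was 662, 441 and 536 CPM at 2 mg/L and 2107, 1788 and 1865 CPM at 4 mg/L. Its leading isoform held 0.251, 0.344 and 0.311 at 2 mg/L and 0.265, 0.284 and 0.372 at 4 mg/L, so the shares overlapped. Member 7 differed from it in both measures. Its total was 470, 379 and 403 CPM at 2 mg/L and 89.3, 71.6 and 91.2 CPM at 4 mg/L, and its share was 0.721 to 0.749 and 0.563 to 0.648. Member 10 had a higher share at 4 mg/L under both conditions. In light its shares were 0.697, 0.687 and 0.688 at 2 mg/L and 0.835, 0.893 and 0.907 at 4 mg/L. In darkness they were 0.195 and 0.357 at 2 mg/L and 0.428, 0.359 and 0.361 at 4 mg/L. Neither difference of member 10 was called. Member 17 was close to 0 in darkness at both concentrations, at most 0.0242, and held 0.368, 0.311 and 0.231 in light at 2 mg/L and 0.446, 0.497 and 0.486 at 4 mg/L.

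In the organs, each leading isoform was placed against the callus values. A library was counted on the light side when its share reached or passed the nearest light callus library, and on the dark side when it reached or passed the nearest dark one. Leaves grow in light in the intact plant and bulbs and roots grow in soil, but the labels give no light condition for the organs, which came from purchased bulbs kept cold. The rule limited the difference between mean leaf and mean bulb shares, so that difference is no result.

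All leaf libraries lay on the light side in 7 members and on the dark side in 9, and in 3 they lay between. Bulb libraries lay on the light side in 6 members, on the dark side in 6 and between in 7. Root libraries lay on the light side in 8 members, on the dark side in 2 and between in 5. Basal plate libraries lay on the light side in 4 members, on the dark side in 7 and between in 4. In the remaining members, 1 for leaves, 1 for bulb, 5 for root and 5 for basal plate, the libraries of an organ fell in different classes. The organs as a whole therefore matched neither callus condition. All 10 organ libraries were on the light side in members 2 and 6, on the dark side in members 10 and 17, and between in member 19. A side includes shares beyond the callus range, so it does not mean a share like that of callus. In member 10 leaves, bulb and basal plate held at most 0.0364, below the dark callus range of 0.195 to 0.428. Root, at 0.229 and 0.217, lay within that range.

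Estimated counts behind an organ share ran from 21 to 24843 per gene, with a median of 1223, and the 95% Wilson intervals were up to 0.218 wide. In 14 of 200 organ shares, all in members 2, 6 and 13, the gene had under 100 counts. Member 2 is an example, since its total was 0.825, 0.914 and 1.14 CPM in leaves and its leading isoform was listed at 0, 0 and 0.0214.

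**Figure D4:**
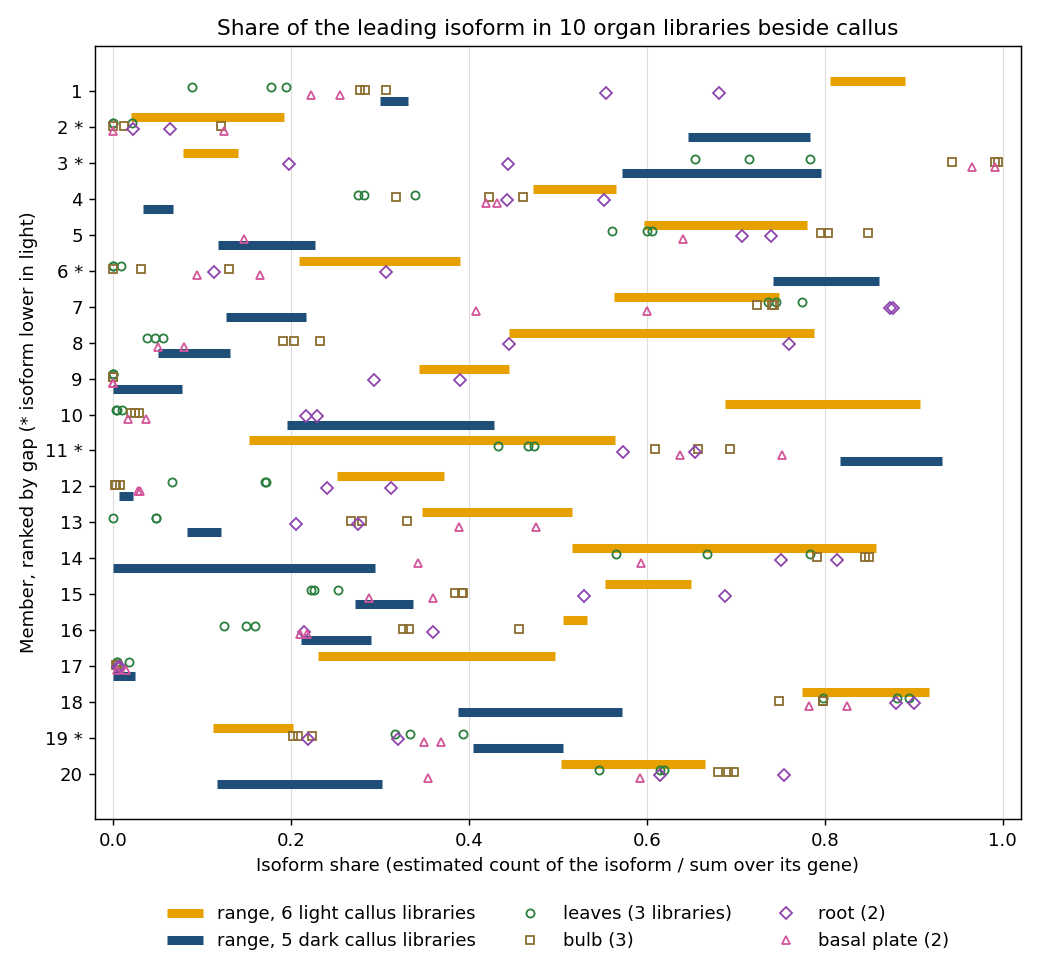
The horizontal axis is the share of the leading isoform and the vertical axis the 20 members, with the range over 6 light callus libraries (orange bars), the range over 5 dark callus libraries (blue bars) and the 10 organ libraries as open symbols. All 10 organ points of member 17 lie at or below 0.0172, beside its dark range, and those of member 1 lie at or below 0.307 except in root, at 0.681 and 0.554.

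Member 1 was on the dark side in leaves, at 0.177, 0.0887 and 0.194, in bulb, at 0.307, 0.283 and 0.277, and in basal plate, at 0.222 and 0.255. Root stood between the callus conditions, at 0.681 and 0.554. The gene's total was also highest in root, with 436 and 122 CPM in the root libraries and 8.38 to 14.6 CPM in the other organ libraries. The counterpart i11 was at 0.0985 and 0.232 in root and at most 0.0214 in any other organ library. In leaves, bulb and basal plate most of the remaining share therefore belonged to isoforms other than i11.

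Member 3 reached its highest shares of i5 in bulb, at 0.995, 0.992 and 0.943, and in basal plate, at 0.991 and 0.965, above all dark callus libraries. In root it held 0.198 and 0.443, and in leaves 0.654, 0.784 and 0.715. Member 4 lay between the callus conditions in leaves, bulb and basal plate, with i16 at 0.276 to 0.4602. Root held 0.551 and 0.442 of it. With i3 listed at 0 in all organs, dark callus was the one setting among those sampled in which i3 held a large share of this gene.

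In the 20 members, the isoform favoured in darkness held at least 0.05 in all 10 organ libraries in 11 members, and the isoform favoured in light did so in 12. Under 0.05 in all 10 organ libraries were 1 dark-side isoform, that of member 4, and 1 light-side isoform, that of member 17. The leading isoform of member 17 held 0.231 to 0.497 in light callus and at most 0.0172 in an organ, although the gene's total in the organs was 16.1 to 73.4 CPM, beside 42.6 to 68.3 CPM in light callus.

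Shares in root and in basal plate were tested against bulb over the 10 organ libraries, with adjustment over 116203 isoforms. The 2 root libraries and the 2 basal plate libraries differed from each other more than other libraries of a group did, with a chi-square per gene of 48.1 and 41.1 beside 6.56 to 23.5. Leaving out 1 library of such a pair leaves 1, which is then assumed to vary like the other groups. Between root and bulb the number called was 2 whichever organ library was left out. Between root and bulb, 2 of 20 leading isoforms were called, both higher in root, beside 0.706% of all isoforms tested and 0.81% of the 23840 isoforms in the restricted set. Isoform i49 of Crpow_TRINITY_DN859_c0_g1 (member 9) held 0.390 and 0.293 in root and 0 in all 3 bulb libraries. It had 2139 of 5485 and 596 of 2035 counts in root and 0 of 340, 0 of 254 and 0 of 369 in bulb, which allows shares of up to 0.00882, 0.0118 and 0.00813. The difference was called with edgeR at an adjusted p of 0.000755. In light callus the same isoform held 0.344 to 0.445, and in dark callus, leaves and basal plate at most 0.0776. High shares of i49 were thus seen in light callus and root.

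Isoform i16 of Crpow_TRINITY_DN7655_c0_g1 (member 12) held 0.312 and 0.240 in root and 0.00296, 0.00792 and 0.00235 in bulb (edgeR, adjusted p = 7.88e-07). The bulb shares rested on 2, 4 and 2 counts. Its values in leaves were 0.171, 0.0656 and 0.171, between root and bulb. In basal plate it held 0.0306 and 0.0276, a mean of 0.0291 ± 0.00218 (SD, n = 2) beside 0.00441 ± 0.00305 (n = 3) in bulb (edgeR, adjusted p = 0.0422). This was the 1 member called between basal plate and bulb, beside 0.674% of all isoforms tested and 0.596% of the restricted set. The call was lost without the filter on low counts, with limma, with Salmon counts, with the replicate number as a block, and when any 1 of the 3 bulb, 2 basal plate libraries, root replicate 1, leaves replicate 1 or leaves replicate 3 was left out. The other members were not called in either comparison, which does not show that their shares were alike. On simulated data the share test found only part of the changes put into callus and none of those put between root and bulb, so few calls here say little about the members not called.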

How the data were processed

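Isoform tables for 21 polyA RNA libraries were used as deposited by the authors. The authors deposited estimated counts per isoform of a Trinity assembly (by the feature identifiers) in a first set and, by the table labels, in a second set made with Salmon. The authors also deposited TPM values, scaled for transcript length and library total, for both sets. The submitters' processing notes name fastp 0.23.4, kallisto 0.46.1 and Salmon 1.4.0. Which tool made the first set, the assembly steps and the annotation are not given in the sources used here. Gene totals are sums of the isoform counts, rounded to whole numbers. The deposited gene tables were not used, since they differed from these sums. Library totals ranged from 26403881 to 67502918 estimated counts.

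The members, lists and tests were chosen with earlier results of these data known. The counterpart isoform and the restricted background set (a mean callus share of at least 0.1) were defined after the values were seen. Members whose identifiers are printed are the 2 largest gaps in each direction and, elsewhere, the called members with the largest changes, and a second called member was named after its values were seen.

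Gene totals were tested with edgeR 4.0.16 (R 4.3.3; TMM, filterByExpr, quasi-likelihood F test). Shares were tested with edgeR's diffSpliceDGE on the quasi-likelihood fit, over 11 callus or 10 organ libraries. P-values were adjusted by Benjamini and Hochberg over all features tested, at 0.05. Alternatives were RLE factors, library totals, no filter, DESeq2 1.42.0, limma 3.58.1 on arcsine square root shares, Salmon counts, a replicate block, each library left out and other limits of the rule. The fits were tested on simulated data, where the gene test found most large changes and the share test found only part of the large and few of the small changes in callus and none between root and bulb. The simulated isoforms for the share test were redefined, at a higher level, after a first run found fewer still. Wilson intervals at 95% and the limit for a count of 0 (3 counts) cover counting error only. Same-lettered or same-numbered libraries did not deviate together in most pairs, so they were not treated as paired. No 2 libraries of a group agreed within sampling noise, and the root and basal plate pairs differed most.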

Additional observations from a re-analysis of the deposited data

Results flagged for a closer look

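One result was marked because the effect of concentration differed between light and darkness. For isoform i6 of Crpow_TRINITY_DN12189_c1_g1 (member 2), the log2 effect of 4 against 2 mg/L of 2,4-D on the share was 2.60 higher in light than in darkness (edgeR, adjusted p = 0.0203). The mean share rose from 0.0308 to 0.168 in light, in 3 of 3 libraries above all 3 at 2 mg/L, and was 0.756 and 0.697 in darkness with overlapping libraries. The dark group at 2 mg/L holds 2 libraries, and the call was lost without either of them, in fits where the 1 library left is assumed to vary like the other groups. No group of organ or callus libraries was large enough for a check of single outlying libraries.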

How the results depend on the processing

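The number of genes meeting the rule was 20. It was 12 with a minimum of 20 CPM, 130 with a gap of 0.1, 8 with a gap of 0.3, and 21 to 30 when 1 callus library was left out. Leaving out a library removes a requirement of the rule and can only keep or add genes. That range is therefore no check on the 20 members. With Salmon counts 18 genes met the rule, and 14 of them were among the 20. With TPM shares 19 genes met it, and 12 of them were among the 20. Membership thus depended in part on the estimates used. A gap of 0.2 was kept by 13 members with TPM shares of the first set and by 13 with TPM shares of Salmon. Calls for the share at 4 against 2 mg/L in light went from 2 to 1 without the filter on low counts, with Salmon counts and with the replicate block. The count was 1 when any 1 light library was left out and 2 when any 1 dark library at 4 mg/L was. Limma called 3 members for this comparison, all higher at 4 mg/L. Its background in the restricted set was 3071 of 24016 isoforms, beside 775 by edgeR. For the difference between the concentration effects, the 1 call became 0 without the filter and 0 with limma, and was 0 to 1 when a library was left out. Between root and bulb, limma called 5 members, 4 higher and 1 lower in root, in place of 2. In the restricted set limma called 520 of 23769 isoforms, beside 193 of 23840 by edgeR. The edgeR count stayed at 2 with any 1 leaf or bulb library left out. Between basal plate and bulb the 1 call became 0 without the filter, with limma, with Salmon counts and with the replicate block, and was 0 to 1 when a library was left out. In darkness 0 were called in each of these fits. Gene totals called were 13 to 17 at 2 mg/L and 13 to 15 at 4 mg/L with a library left out. At 4 mg/L, 1 lower total was called with library totals, with the replicate block, without light replicate C at 4 mg/L and without dark replicate C at 2 mg/L. Where a group was reduced to 1 library, its spread was borrowed from the other groups. Most same-named libraries did not deviate together, so they were not treated as paired: correlations of same-named libraries ran from -0.295 to 0.4601 in callus and from -0.327 to 0.191 in organs, with 7 of 27 over 0.1. The cause of these changes was not tested. Groups of 2 or 3 libraries and, in organs, genes with as few as 21 counts limit the precision.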
